A study of Sus scrofa with 8 samples.

Results

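Genes that crosslink the cardiac matrix, cut it, or restrain that cutting were followed in right ventricular tissue of pigs (Sus scrofa). The 10 members were the lysyl oxidases LOX, LOXL1, LOXL2 and LOXL3, the matrix metalloproteinases MMP2 and MMP14, and the tissue inhibitors TIMP1, TIMP2, TIMP3 and TIMP4, taken by gene name from a table of 30550 genes. All 10 were found, each as a single row. RNA sequencing gave 8 libraries: 4 of pigs heterozygous for a PKP2 knockout (PKP2_het) and 4 of wild-type pigs (WT). PKP2 encodes plakophilin 2, a desmosomal protein, and the series presents these pigs as modelling arrhythmogenic cardiomyopathy, a heart muscle disease marked by replacement of myocardium with fibrous and fatty tissue. The labels leave out age, sex, breed and founder animals, and nothing says that each library came from its own animal, so p-values measure only the spread between these libraries.

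Lysyl oxidases are secreted copper enzymes that oxidise lysine side chains of collagen and elastin, and the products join into covalent crosslinks that stiffen the fibre. MMP2 is a secreted gelatinase that is made as an inactive proenzyme; MMP14 is anchored in the cell membrane and, with TIMP2 as a bridge, cuts pro-MMP2 into its active form. TIMPs block the catalytic zinc of metalloproteinases, TIMP3 is held in the matrix and also blocks ADAM17, and TIMP4 is known for its expression in heart. In the heart most of this system is made by fibroblasts and other stromal cells.

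Levels are FPKM, fragments per kilobase of gene length, scaled for library depth, and are relative to the median gene of each library. Between 23637697 and 31313628 fragments per library were assigned to genes. The PKP2 transcript was at 45.4, 40.7, 24.6 and 45.9 FPKM in the 4 PKP2_het libraries, against 52.9, 62.2, 61.1 and 72.8 FPKM in the 4 WT libraries. The groups did not overlap (exact permutation test, two-sided, p = 0.0286, the lowest value available from 70 relabellings), while limma over all genes gave an adjusted p of 0.164. PKP2_het replicate 3 stood apart from the other libraries, with 52.1% of its fragments from mitochondrial genes against 21.1% to 37.6% in the other libraries. Its position on the first principal component was 47.8, against -16.5 to 3.74 elsewhere. The labels name cardiomyocytes, but the protocol describes tissue: the cardiomyocyte light chain MYL2 averaged 7270 FPKM over all libraries, and the fibroblast proteoglycan DCN 148.7, the endothelial PECAM1 90.7 and the pericyte gene RGS5 95.6 FPKM. In such bulk tissue, fewer cells of a type and less RNA per cell cannot be told apart.

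TIMP3, MMP2, TIMP2, TIMP1 and MMP14 were each above every lysyl oxidase of the members in all 8 libraries, whereas TIMP4 was above LOXL1 in 5 of 8. Over all 8 libraries TIMP3 averaged 98.0 ± 13.03 FPKM (SD, n = 8), which put it above 95.5% of the tested genes. MMP2 followed at 30.3 ± 4.98, TIMP2 at 28.3 ± 4.57, TIMP1 at 10.4 ± 2.57 and MMP14 at 4.56 ± 0.999 FPKM. TIMP4 averaged 2.83 ± 1.03, LOXL1 2.31 ± 0.709, LOX 1.49 ± 0.954, LOXL2 1.04 ± 0.228 and LOXL3 0.825 ± 0.251 FPKM. The ranges of neighbours in this order were apart only between TIMP3 and MMP2, between TIMP2 and TIMP1, and between TIMP1 and MMP14. MMP2 was above TIMP2 in 7 of 8 libraries, although their ranges overlapped, and LOX was above LOXL2 in 4 of 8. From MMP14 down to LOXL3 every range overlapped the next.

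**Figure D1:**
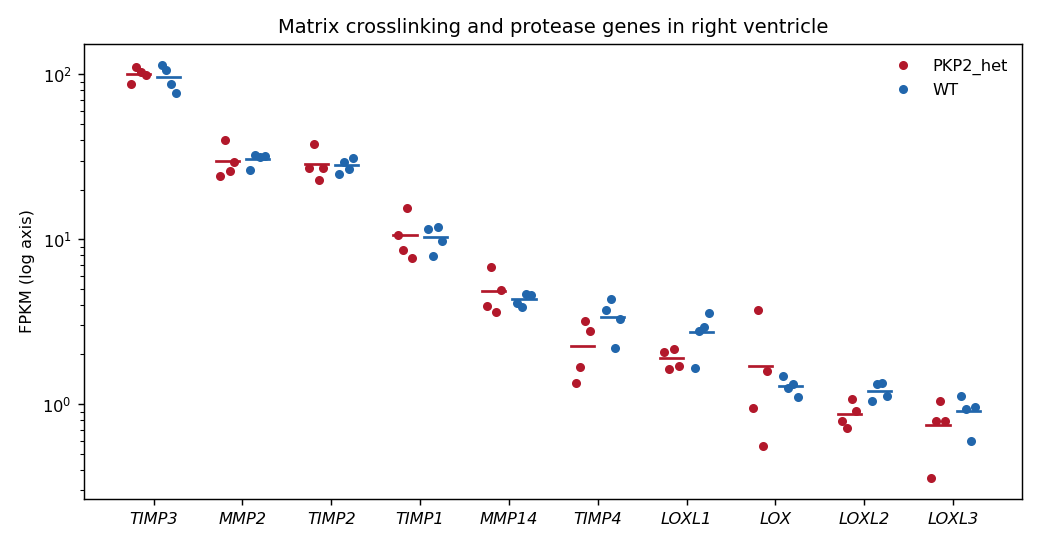
FPKM of each member by library on a log axis, in order of mean level, with PKP2_het libraries left of WT libraries; each point is a library and each bar a group mean (n = 4 each). TIMP3 lies between 77.0 and 114 FPKM, whereas LOX spreads from 0.557 to 3.72 FPKM within PKP2_het.

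No member was called in the comparison of PKP2_het with WT. Genes entered the test when 4 or more of the 8 libraries reached 1 FPKM, and 9 of 10 members did, LOXL3 falling short. Of the 9, limma with Benjamini-Hochberg adjustment called 0 at 0.05, while 1.86% of the 10757 tested genes were called. At an unadjusted p under 0.05 limma gave 1 of 9, LOXL2, against 12.8% of tested genes, and limma voom on recovered fragments also called 0. In 0 of 10 members did the ranges of the groups separate, against 9.19% of tested genes. The 9 log2 fold changes, 5 positive and 4 negative, had a median of 0.0097, beside -0.022 for all tested genes. With libraries rescaled to equal sums, which moved the median of all tested genes to -0.23, 1 of the 9 was positive and their median was -0.24. Without PKP2_het replicate 3 limma again called 0 members, the lowest adjusted p being 0.150, for LOXL2.

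**Figure D2:**
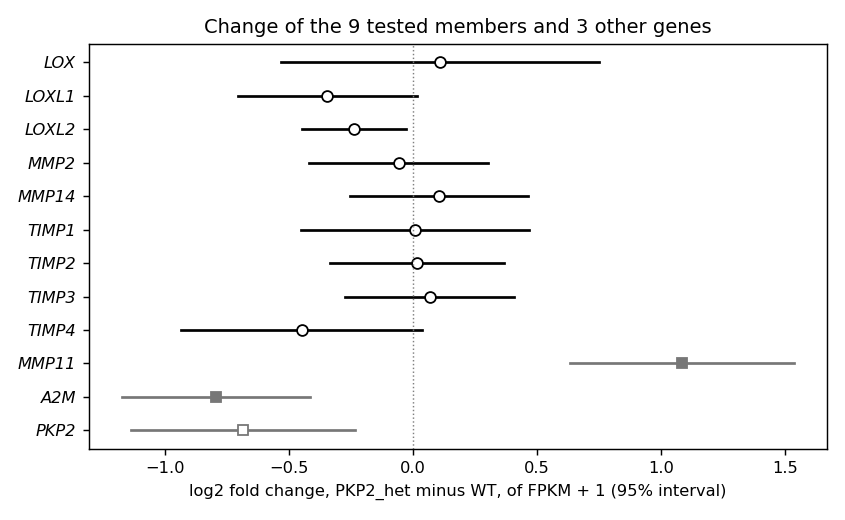
Log2 fold change of FPKM + 1, PKP2_het minus WT, with its 95% interval from limma, for the 9 tested members (circles) and for MMP11, A2M and PKP2 (squares); filled symbols passed an adjusted p of 0.05. All 9 circles are open, and their estimates run from -0.45 for TIMP4 to 0.11 for LOX.

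Among the crosslinking enzymes LOX varied most. LOX (chromosome 2, 125595115 to 125607026 of Sscrofa11.1, the founding member of the family, acting on collagen and elastin) was at 0.942, 3.72, 0.557 and 1.58 FPKM in the 4 PKP2_het libraries, against 1.48, 1.24, 1.33 and 1.10 FPKM in the 4 WT libraries. The PKP2_het libraries thus held both the highest and the lowest values, on either side of a narrow WT range. These levels rest on 21 to 173 fragments per library. The log2 fold change was 0.11 ± 0.29 (SE; limma adjusted p = 0.891), with a 95% interval from -0.53 to 0.75, and it was -0.20 without PKP2_het replicate 2 and 0.33 without PKP2_het replicate 3. The coefficient of variation of LOX was 82.9% in PKP2_het and 12.4% in WT.

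LOXL1, which crosslinks tropoelastin and is needed in mice to renew elastic fibres, had lower values in most PKP2_het libraries. LOXL1 (chromosome 7, 59481410 to 59505161) was at 2.08, 1.63, 2.15 and 1.70 FPKM in PKP2_het, against 1.65, 2.77, 2.95 and 3.55 FPKM in WT. WT replicate 1 lay among the PKP2_het values and the other 3 WT libraries lay above all of them. PKP2_het libraries averaged 1.89 ± 0.264 FPKM, against 2.73 ± 0.797 FPKM for WT libraries (SD, n = 4), a log2 fold change of -0.34 ± 0.16 (SE; limma adjusted p = 0.414). Without WT replicate 1 the log2 fold change was -0.50 and the limma adjusted p 0.110.

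LOXL2, a lysyl oxidase that also crosslinks collagen IV of basement membranes, had the smallest p of the members. LOXL2 (chromosome 14, 7435861 to 7540699) was at 0.787, 0.717, 1.08 and 0.905 FPKM in PKP2_het, against 1.04, 1.32, 1.34 and 1.12 FPKM in WT. Only PKP2_het replicate 3 reached the WT range. Its log2 fold change of -0.24 ± 0.094 (SE) had a limma unadjusted p of 0.0298 and an adjusted p of 0.312. It entered the test through all 4 WT libraries and 1 PKP2_het library at 1 FPKM or more, so its place in the test came mostly through WT. The pseudocount of 1 shrinks changes at this level: the log2 fold change was -0.43 with a pseudocount of 0.1 and -0.50 with limma voom on fragments, still uncalled, and limma with library quality weights called it lower (adjusted p = 0.0402).

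LOXL3, a family member with roles in cartilage and palate development in mice, lay below the filter. LOXL3 (chromosome 3, 68498114 to 68516829) was at 0.355, 0.786, 1.04 and 0.794 FPKM in PKP2_het, against 1.12, 0.934, 0.599 and 0.966 FPKM in WT. The groups overlapped widely, with PKP2_het replicate 1 lowest and WT replicate 1 highest. With no filter its log2 fold change was -0.14 and its limma adjusted p 0.732. Its end overlaps HTRA2 on the other strand, at 11.2 FPKM, and no source used here says whether counting used strand. The summed level of the 4 lysyl oxidases was 4.17, 6.85, 4.83 and 4.98 FPKM in PKP2_het, against 5.29, 6.27, 6.22 and 6.74 FPKM in WT. LOX made up 54.2% of that sum in PKP2_het replicate 2, compared with 11.5% to 31.8% in the other 7 libraries.

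The protease MMP2 and its membrane activator MMP14 were both highest in PKP2_het replicate 2. MMP2 (chromosome 6, 30059247 to 30087031) was at 24.2, 39.9, 26.1 and 29.2 FPKM in PKP2_het, against 26.4, 32.6, 31.7 and 32.0 FPKM in WT. The WT libraries other than replicate 1 lay within 1 FPKM of each other, while the PKP2_het libraries reached both below and above them. The MMP2 log2 fold change was -0.06 ± 0.16 (SE; limma adjusted p = 0.900), with a 95% interval from -0.42 to 0.30.

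MMP14 (chromosome 7, 76174502 to 76185931) was at 3.93, 6.78, 3.64 and 4.92 FPKM in PKP2_het, against 4.11, 3.88, 4.65 and 4.60 FPKM in WT. A single library, PKP2_het replicate 2, carried the higher PKP2_het mean: the log2 fold change was 0.11 ± 0.16 (SE; limma adjusted p = 0.800) with it and -0.04 without it. MMP2 stood at 5.89 to 7.16 times the MMP14 level in PKP2_het and at 6.44 to 8.41 times in WT, as ratios of FPKM within a library.

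TIMP3 dominated the inhibitor pool in every library. TIMP3 (chromosome 5, 12185816 to 12242599) was at 87.3, 110, 104 and 98.6 FPKM in PKP2_het, against 114, 106, 87.0 and 77.0 FPKM in WT. The PKP2_het values all fell within the WT range. The log2 fold change of 0.07 ± 0.15 (SE; limma adjusted p = 0.870) had a 95% interval from -0.27 to 0.41, equal to 0.828-fold to 1.33-fold on FPKM + 1. TIMP3 made up 69.1% to 72.5% of the summed TIMP level in PKP2_het and 63.7% to 74.0% in WT.

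TIMP2, the bridge between MMP14 and pro-MMP2, ran close to MMP2. TIMP2 (chromosome 12, 3254794 to 3300835) was at 27.2, 37.8, 22.8 and 27.0 FPKM in PKP2_het, against 24.9, 29.4, 26.7 and 30.9 FPKM in WT. The highest and the lowest library were again both PKP2_het, replicates 2 and 3. Its log2 fold change was 0.02 ± 0.16 (SE; limma adjusted p = 0.975). The ratio of MMP2 to TIMP2 was 0.892, 1.06, 1.14 and 1.08 in PKP2_het, against 1.06, 1.11, 1.18 and 1.03 in WT. PKP2_het replicate 1 alone had less MMP2 than TIMP2 per length.

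TIMP1, an inhibitor that inflammatory signals induce, had an estimate close to 0. TIMP1 (chromosome X, 42103251 to 42106289) was at 10.5, 8.63, 15.5 and 7.65 FPKM in PKP2_het, against 11.5, 7.96, 11.9 and 9.74 FPKM in WT. PKP2_het replicate 3 was the highest of all libraries and PKP2_het replicate 4 the lowest. The log2 fold change was 0.01 ± 0.20 (SE; limma adjusted p = 0.988), and -0.18 without PKP2_het replicate 3. TIMP1 lies inside the span of SYN1 on the other strand, which averaged 11.2 FPKM. Where exons of such partners overlap, their fragments cannot be told apart unless counting used strand. Only whole spans were compared here, and overlap of exons was not checked. TIMP3 and TIMP4 lie within SYN3 and SYN2 in the same way, but these averaged only 0.182 and 0.0573 FPKM.

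TIMP4 had the lowest estimate of the members. TIMP4 (chromosome 13, 68179803 to 68191199) was at 1.35, 1.68, 3.21 and 2.79 FPKM in PKP2_het, against 3.74, 4.35, 2.19 and 3.30 FPKM in WT. PKP2_het replicates 1 and 2 were below every WT library, whereas replicates 3 and 4 lay inside the WT range. PKP2_het libraries averaged 2.26 ± 0.886 FPKM, against 3.39 ± 0.912 FPKM for WT libraries (SD, n = 4), a log2 fold change of -0.45 ± 0.22 (SE; limma adjusted p = 0.431) with a 95% interval from -0.93 to 0.04. It made up 1.06% to 2.21% of the summed TIMP level in PKP2_het and 1.71% to 2.94% in WT.

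Set against each other, proteases and inhibitors gave overlapping balances. MMP2 and MMP14 together, divided by the sum of the 4 TIMPs, came to 0.223, 0.295, 0.205 and 0.251 in PKP2_het, against 0.198, 0.247, 0.284 and 0.302 in WT. The lowest value was in WT replicate 1 and the highest in WT replicate 4, with all PKP2_het libraries between them. These ratios are of transcript levels per length, do not depend on library scaling, and were not tested.

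**Figure D3:**
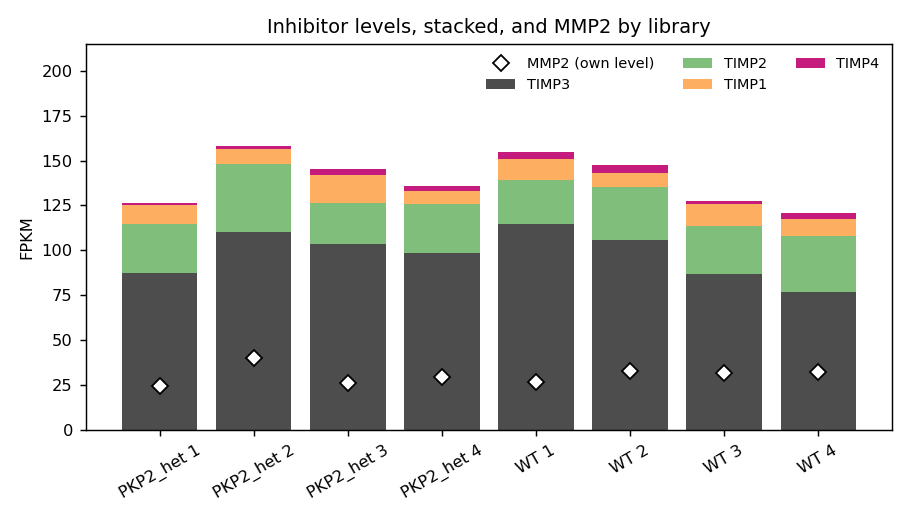
FPKM of the 4 inhibitors, stacked by library from 0, with the MMP2 level as a diamond on the same axis; PKP2_het libraries are left of WT libraries. The summed inhibitor level runs from 126 to 158 FPKM in PKP2_het and from 121 to 155 FPKM in WT, and TIMP3 is the largest layer in all 8 libraries.

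Spread within the PKP2_het group was larger than in WT for 8 of 10 members, LOXL1 and TIMP3 being the exceptions. The same held for 73.9% of all tested genes, so the members' count reads near the background. PKP2_het replicate 2 was the highest of all 8 libraries for LOX, MMP2, MMP14 and TIMP2. In that library the summed level of 8 fibroblast markers was also the highest, at 449.7 FPKM; the remaining PKP2_het libraries had 209 to 344 FPKM and WT libraries 234 to 281 FPKM. DCN alone reached 256 FPKM there, while PKP2_het replicates 1, 3 and 4 had 88.7 to 195 FPKM and WT libraries 115 to 140 FPKM. Over all 8 libraries Spearman's rho with the fibroblast sum was 0.262 for LOX, 0.405 for MMP2, 0.524 for MMP14 and 0.738 for TIMP2. These 4 were picked for peaking in the library where that sum also peaked, which favours positive values. The remaining members all had negative values, from -0.810 for LOXL3 and -0.667 for TIMP4 to -0.0476 for LOXL1. With the cardiomyocyte sum LOX had -0.595, MMP2 -0.619, MMP14 -0.595 and TIMP2 -0.429. MMP2 had 0.667 with the macrophage sum and -0.762 with the mitochondrial share of fragments, and TIMP2 also had -0.762 with that share. None of the 8 fibroblast markers was called and none was at 0 in every library. Of the 8, 6 had positive and 2 negative log2 fold changes, with a median of 0.18. The groups did not overlap for 1 of 8, MFAP5, against 9.19% of all tested genes. MFAP5 was at 42.7 to 64.6 FPKM in PKP2_het, against 33.8 to 40.5 FPKM in WT. The part of these markers in the members' values was not tested.

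The levels of LOXL3 and TIMP4 followed those of vessel genes across libraries. The sum of 8 endothelial markers was 207, 254, 426 and 319 FPKM in PKP2_het, against 488, 383, 246 and 348 FPKM in WT. Its 3 lowest libraries, PKP2_het replicates 1 and 2 and WT replicate 3, were also the 3 lowest for LOXL3 and for TIMP4. For LOXL3 the margin was small, with 0.786 FPKM in PKP2_het replicate 2 and 0.794 FPKM in PKP2_het replicate 4. Spearman's rho with this sum over the 8 libraries was 0.976 for LOXL3 and 0.857 for TIMP4, picked after seeing all 100 pairs of 10 members with 9 marker sums and the mitochondrial share. LOXL3 also had 0.929 with the pericyte and smooth muscle sum. The adipocyte sum gave 0.905 for LOXL3 and 0.857 for TIMP4, the latter equal to the TIMP4 value with the endothelial sum. On average 74.2 FPKM of the adipocyte sum was FABP4, which adipocytes and capillary endothelium both make, and 1.68 FPKM was ADIPOQ. The source of FABP4 was not tested. All 8 endothelial markers were tested, 0 were called, all 8 had a negative log2 fold change, and their part in the TIMP4 value was not tested.

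**Figure D4:**
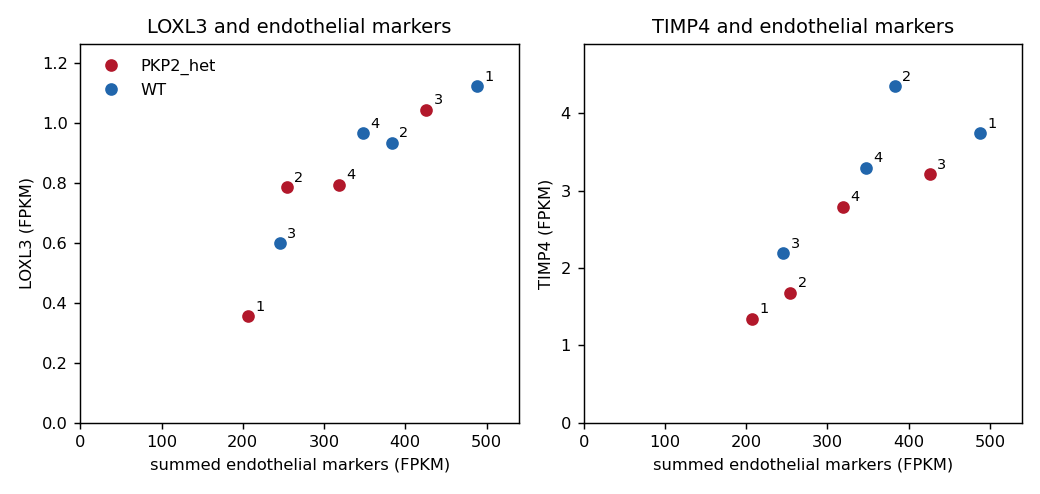
LOXL3 (left) and TIMP4 (right) FPKM against the summed FPKM of 8 endothelial markers, 1 point per library, numbered by replicate within PKP2_het and WT. The 3 libraries with the least endothelial signal, PKP2_het 1 and 2 and WT 3, are the 3 lowest for both genes. For LOXL3, PKP2_het 2 (0.786 FPKM) is barely below PKP2_het 4 (0.794 FPKM).

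Beyond the members, the pathway was read through 6 lists of related genes. The lists were chosen with earlier results of these data known, so a called gene in a list is not independent of that choice. In 19 other crosslinking and collagen-folding enzymes, 16 were tested and 0 were called in either direction. Of the 16, 3 had a limma unadjusted p under 0.05, against 12.8% of all tested genes. These were PLOD1, a lysyl hydroxylase, with a mean of 9.98 ± 0.657 FPKM for PKP2_het, against 12.7 ± 1.53 FPKM for WT, SERPINH1, the collagen chaperone HSP47, with 39.5 ± 4.79 FPKM for PKP2_het, against 48.6 ± 1.93 FPKM for WT, and TGM2, a transglutaminase, with 78.1 ± 23.9 FPKM for PKP2_het, against 115 ± 18.0 FPKM for WT (SD, n = 4). Their limma adjusted p-values were 0.253, 0.311 and 0.306. For PLOD1 and SERPINH1 every PKP2_het library was below every WT library, so 2 of 16 did not overlap, against 9.19% of all tested genes. The list median was -0.03 on the log2 scale. P3H3, a member of the prolyl 3-hydroxylase family, was at 0.30 on that scale (limma adjusted p = 0.506). Without PKP2_het replicate 3 the estimate was 0.14 for P3H3 and -0.37 for TGM2, which had -0.60 with all libraries.

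Procollagen processing enzymes and LOX activators had 7 of 14 genes tested, 0 called, and a median log2 fold change of 0.23, with 5 positive and 2 negative. The 4 smallest p-values belonged to the elastic fibre proteins FBLN5 and EFEMP2 (fibulins, of which EFEMP2 brings LOX to elastin), the procollagen C-proteinase enhancer PCOLCE2 and BMP1, which cleaves pro-LOX. Their log2 fold changes were 0.41, 0.23, 0.31 and 0.32, with limma adjusted p-values from 0.470 to 0.676. The BMP1 estimate was 0.07 without PKP2_het replicate 3, 0.58 without PKP2_het replicate 1 and 0.19 without WT replicate 3. That of PCOLCE2 was 0.10 without WT replicate 1, 0.15 without PKP2_het replicate 2 and 0.48 without PKP2_het replicate 4. Under equal library sums the EFEMP2 estimate was -0.026.

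Among other matrix metalloproteinases MMP11 rose. Of 20 listed genes 18 were in the table and 6 were tested; 1 was called higher, against 1.15% of tested genes, and 0 lower. MMP11, stromelysin 3, a secreted protease that furin activates inside the cell (chromosome 14, 49907684 to 49917494), was at 17.9, 18.5, 34.0 and 24.8 FPKM in PKP2_het, against 9.52, 12.7, 10.5 and 8.94 FPKM in WT. Every PKP2_het library was above every WT library. PKP2_het libraries averaged 23.8 ± 7.47 FPKM, against 10.4 ± 1.67 FPKM for WT libraries (SD, n = 4), a ratio of 2.28, with a log2 fold change of 1.08 ± 0.20 (SE; limma adjusted p = 0.0270). The call was lost in 7 of 17 alternative fits, with adjusted p-values up to 0.393 and log2 fold changes from 0.83 to 1.20; in single-library omissions it was lost without PKP2_het replicate 4 (0.0795) and without WT replicates 1, 3 or 4 (0.0810, 0.0677 and 0.0976). Without PKP2_het replicate 3 the MMP11 log2 fold change was 0.90 (limma adjusted p = 0.0162).

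MMP15, another membrane-anchored metalloproteinase, averaged 10.2 ± 2.05 FPKM for PKP2_het, against 14.5 ± 0.751 FPKM for WT (SD, n = 4). Its groups did not overlap either, which made 2 of 6 tested genes of this list, against 9.19% of all tested genes. Limma gave MMP15 an adjusted p of 0.152 at a log2 fold change of -0.48. MMP23B and MMP24 had log2 fold changes of 0.46 and 0.26 and limma adjusted p-values of 0.383 and 0.423, and MMP24 was at 0.15 without WT replicate 1. The remaining 12 genes lay below the filter, 7 of them (MMP1, MMP3, MMP7, MMP8, MMP12, MMP20 and MMP27) at 0 fragments in all 8 libraries.

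MMP9, the other gelatinase beside MMP2 and a product of neutrophils and macrophages, also lay below the filter and is singled out here after its values were seen. MMP9 (chromosome 17, 48179690 to 48186782) had 0, 3, 0 and 0 fragments in PKP2_het, against 14, 18, 28 and 18 fragments in WT. That is 0 to 0.0442 FPKM in PKP2_het and 0.256 to 0.376 FPKM in WT, with no overlap. The ratio of PKP2_het to WT was 0.0405 after allowing for library factors, with an exact binomial 95% interval from 0.00818 to 0.123 that covers counting error only. In the limma fit with no filter on low values its adjusted p was 0.00382; that fit called 0.441% of 22206 genes lower. The sum of 7 macrophage markers was 20.3, 42.6, 25.9 and 16.7 FPKM in PKP2_het, against 32.6, 29.1, 38.2 and 36.2 FPKM in WT. PKP2_het replicates 1, 3 and 4 lay below every WT library. PKP2_het replicate 2, the highest of all at 42.6 FPKM, had 3 MMP9 fragments, while WT replicate 2, at 29.1 FPKM, had 18. Of the 7 markers 0 were at 0 in every library; 6 were tested, all 6 had negative log2 fold changes (median -0.30) and limma called 0. Their part in the MMP9 value was not tested.

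Of 19 ADAM and ADAMTS proteases 11 were tested and 0 were called. ADAM10, a membrane sheddase, averaged 10.1 ± 2.18 FPKM for PKP2_het, against 14.5 ± 2.05 FPKM for WT (SD, n = 4), and limma gave an adjusted p of 0.207. ADAMTS1, ADAMTS7 and ADAMTS9 had log2 fold changes of 0.54, -0.29 and -0.25, with limma adjusted p-values of 0.444, 0.567 and 0.661. Without PKP2_het replicate 1 the ADAMTS7 estimate was -0.17 and that of ADAMTS9 -0.09, and ADAMTS9 was at -0.15 without PKP2_het replicate 2, -0.40 without PKP2_het replicate 3 and -0.16 without WT replicate 1. The list median was -0.03.

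Among other inhibitors and cofactors of matrix turnover A2M fell. Of 17 listed genes 15 were tested, 1 was called lower, against 0.707% of tested genes, and 0 higher. A2M, alpha-2-macroglobulin, which traps proteases of many classes (chromosome 5, 62406928 to 62483690), was at 12.7, 17.5, 14.9 and 19.9 FPKM in PKP2_het, against 32.0, 33.3, 22.4 and 27.7 FPKM in WT. The highest PKP2_het library lay below the lowest WT library, so 1 of 15 tested genes did not overlap, against 9.19% of all tested genes. PKP2_het libraries averaged 16.3 ± 3.14 FPKM, against 28.9 ± 4.90 FPKM for WT libraries (SD, n = 4), 56.3% of the WT mean, with a log2 fold change of -0.79 ± 0.17 (SE; limma adjusted p = 0.0497). The adjusted p sat at the threshold and the call was lost in 11 of 17 alternative fits, with adjusted p-values from 0.0176 to 0.228 and log2 fold changes from -1.05 to -0.69; the omissions that lost it were those of PKP2_het replicates 1, 2 and 3 and WT replicates 1, 2 and 4, at 0.0623 to 0.161.

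The plasminogen system in that list had positive estimates. PLAU, the urokinase activator, averaged 3.40 ± 0.623 FPKM for PKP2_het, against 2.30 ± 0.432 FPKM for WT, and PLAT, the tissue activator, 21.8 ± 4.80 FPKM for PKP2_het, against 14.3 ± 3.96 FPKM for WT (SD, n = 4). Limma adjusted p-values were 0.214 for PLAU, 0.282 for PLAT and 0.371 for the urokinase receptor PLAUR, so none was called. Of 18 tested matrix substrates 0 were called, with 8 positive and 10 negative log2 fold changes and a median of -0.05. Basement membrane collagens COL4A1 and COL4A2 were at -0.33 and -0.46, COL5A2 at 0.24 and the collagen-binding SPARC at -0.39 on the log2 scale, with limma adjusted p-values from 0.370 to 0.546. COL4A1 was at -0.19 without PKP2_het replicate 1, and COL5A2 at 0.10 without PKP2_het replicate 2.

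**Figure D5:**
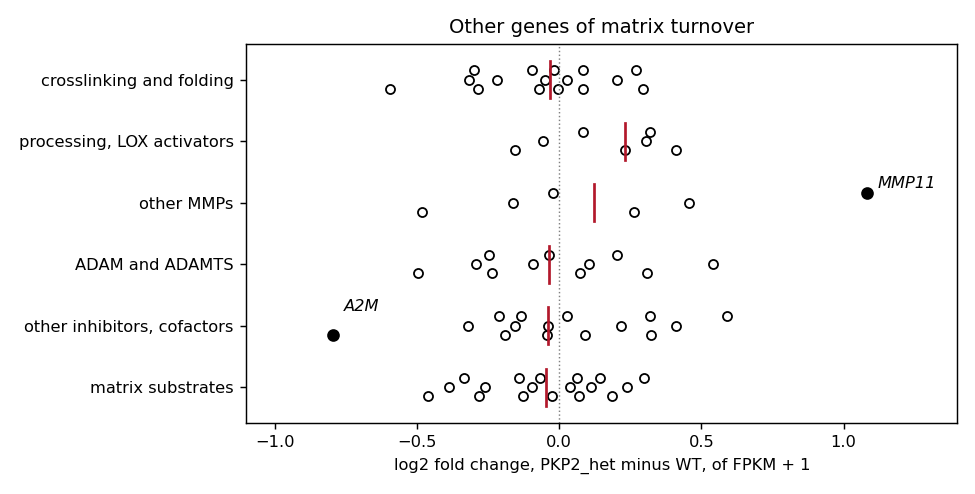
Log2 fold change of FPKM + 1, PKP2_het minus WT, for the tested genes of 6 lists of matrix turnover; each circle is a gene, filled circles passed a limma adjusted p of 0.05 and red bars are list medians. MMP11 at 1.08 and A2M at -0.79 are the only filled circles.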

How the data were processed

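RNA from right ventricular tissue of 4 PKP2_het and 4 WT libraries was sequenced. Per the submitters' processing notes, alignment used HISAT2 2.0.5; no source used here gives the counting program or its annotation. The authors deposited FPKM values with gene names, coordinates and lengths. Multiplied by gene length, 100% of these values were whole fragment numbers (tolerance 0.01 fragments) after division by a constant for each library. Coordinates of 30335 gene IDs equal those of RefSeq Sscrofa11.1.

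The 10757 genes reaching 1 FPKM in 4 or more of 8 libraries were compared as log2(FPKM + 1) by limma 3.58.1 (R 4.3.3) using an intensity-dependent prior variance, two-sided and with Benjamini-Hochberg adjustment over all tested genes at 0.05. Fold changes on this scale understate changes of low genes. The fit was tested on simulated data with the same dispersion for every gene and library, and with changes larger than any member's estimate. That setting lacks the outlying library seen here, so it does not show how the fit performs on these data. Named genes were the members, PKP2, and the called genes or up to 4 genes with the smallest p of each list; of each marker list, the most abundant gene was to be named. The members and lists were chosen with earlier results of these data known. List genes were matched by symbol: SERPINA3, COL6A1, MMP10, MMP21, MSLN and HBA1 had no match. Alternatives covered pseudocounts, filters, scaling, weights, voom, a replicate term and omitted libraries; rescaling nuclear genes was added after the data were seen.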

Additional observations from a re-analysis of the deposited data

Results flagged for a closer look

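Within groups of 4 libraries, the gap between an extreme library and its nearest neighbour was compared with the group's range by Dixon's ratio at its 95% critical value. Of 70 groups examined, 4 passed, close to the 1 in 20 that chance gives. MMP2 was at 26.4 FPKM in WT replicate 1, against 31.7 to 32.6 FPKM in the other WT libraries. P3H3 was at 6.58 FPKM in PKP2_het replicate 3, while replicates 1, 2 and 4 had 3.73 to 4.19 FPKM. ADAMTS1 was at 20.7 FPKM in WT replicate 1, against 8.50 to 10.2 FPKM in the other WT libraries. COL4A1 was at 44.7 FPKM in WT replicate 3, against 67.3 to 70.5 FPKM in the other WT libraries.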

How the results depend on the processing

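No member was called higher under any alternative, and 1 was called lower, LOXL2 with library quality weights. Genome-wide, against 124 higher and 76 lower, the counts were 51 and 37 at a minimum of 5 FPKM, 50 and 45 with libraries rescaled to equal sums, 367 and 292 with quality weights, and 66 and 39 with a replicate block; leaving out 1 library gave 75 to 195 higher and 40 to 119 lower. The 6 lists, with MMP11 higher and A2M lower, had 0 and 0 calls with equal sums and with the block, 2 and 2 with quality weights (ADAMTS1 and MMP15 added), 0 higher with no filter (where A2M was lost too and the 1 lower call was MMP9), 0 lower at 5 FPKM or a pseudocount of 0.1, and 0 to 1 in each direction on omission. The deviations of same-numbered libraries had r from -0.39 to 0.20 over replicates 1 to 4. The value of 0.20 was for replicate 4, whose best partner was WT replicate 4. So few pairs, with PKP2_het replicate 3 set apart, cannot tell whether same-numbered libraries were paired.

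PKP2 was at -0.95 with equal sums (exact permutation p = 0.0857) and from -0.77 to -0.48 on omission, where no p can be below 0.0571. Equal sums moved the median of all genes to -0.23 and turned MMP14 (-0.10), TIMP1 (-0.24), TIMP2 (-0.24), TIMP3 (-0.20) and EFEMP2 (-0.026). Rescaling nuclear genes alone moved the median to -0.083 and turned TIMP1 (-0.060), TIMP2 (-0.058) and TIMP3 (-0.0070). Quality weights turned MMP2 (0.086) and TIMP1 (-0.099), and voom TIMP1 (-0.0048). Omission ranges that changed sign were -0.20 to 0.33 for LOX, -0.20 to 0.030 for MMP2, -0.044 to 0.20 for MMP14, -0.18 to 0.13 for TIMP1, -0.12 to 0.11 for TIMP2 and -0.031 to 0.16 for TIMP3. The cause of these changes was not tested. LOXL1, LOXL2 and TIMP4 kept a negative sign in all 16 alternatives that tested them. Low fragment numbers limit LOX, LOXL2 and LOXL3.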

Other observations

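The genes most like 4 members in pattern, by Pearson's r of log2(FPKM + 1) over the 8 libraries and among all tested genes that are not members, are given as a description. For MMP2 they were SNX33 (0.98), ABI3BP (0.94) and MTAP (0.92). For LOX they were ZNF697 (0.95), SEC31A (0.92) and LAMA4 (0.92), the last a laminin chain of vessel and muscle basement membranes. For TIMP1 they were CCDC150 (0.96), EXOSC8 (0.95) and SEMA3B (0.95), and for TIMP3 the transcription factor KLF4 (0.93), LOC110255568 (0.91) and PCNP (0.90). The 8 points share library effects, and these are the highest r among 10757 tested genes.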
